A study of Mus musculus with 8 samples.

Results

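The sarcomere and muscle fibre genes described here are 35 genes that encode the contractile machinery of striated muscle and its calcium and energy supply, taken by name from 21631 mouse protein-coding genes. For each of them, CpG methylation was read within 2 kb of both ends of the gene, within 2 kb of its listed transcription start and over its whole RefSeq span, with at least 10 CpG positions per window. The cells were quiescent muscle stem cells, the resting cells that lie on the fibre and rebuild it after injury, sorted by flow cytometry from limb muscle of male C57BL/6 mice as CD45-, CD31-, Sca1- and VCAM+ cells. The groups were 4 young mice aged 4 months and 4 old mice aged 22 months, with 1 library from each animal and no other treatment or allele in the labels. Whole-genome bisulfite sequencing, in which unmethylated cytosines are read as thymine, gave between 115000000 and 200000000 reads per library per the labels. The deposited values are 1 level and 1 dispersion per CpG position and age group, so no value below has an SD over animals, the depth at a position is unknown, and neighbours in an order of levels cannot be told apart by a replicate error. A level between 0 and 100% can come from a mixture of cells or of alleles, and these cannot be told apart.

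In a muscle fibre, thin filaments of actin with troponin and nebulin slide along thick filaments of myosin, and titin and the Z-disc proteins hold both in register. An action potential is sensed by a calcium channel in the membrane, which gates the ryanodine receptor of the sarcoplasmic reticulum, and a calcium pump refills the store. A resting muscle stem cell does not build sarcomeres. It switches these genes on only when it differentiates. Promoters rich in CpGs are usually unmethylated in every cell type, whereas CpG-poor promoters of tissue-restricted genes often carry methylation where the gene is silent.

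The fibre genes had methylated starts in both age groups. Of the 27 members with a listed start, 16 stood above 40% within 2 kb of the start, and 5 stood below 20%. These counts, and the shares of all genes that follow, use the mean of both age groups. The median was 46.1% in the young and 46.6% in the old group, against 21.9% and 21.9% over 16633 protein-coding genes, of which 33.6% were above 40% and 46.4% below 20%. The relatives of these genes that other tissues use, such as the cytoplasmic actins, had a median start level of 11.1% in the young and 10.7% in the old group over 14 genes. These medians are descriptions of gene lists, with no test over animals. The sorted identity was read at the less methylated end of marker genes, which is not the start window of the medians above. At that end the members had a median of 47.1% in the young and 49.9% in the old group, and all genes 22.8% and 22.8%. The median over 8 muscle stem cell markers was 12.2% in the young and 12.1% in the old group, over 5 blood markers 65.0% and 64.0%, over 4 endothelial markers 45.6% and 46.5%, over 4 fibro-adipogenic markers 46.6% and 48.4%, and over 3 markers of committed muscle 58.3% and 61.1%. At listed starts the young medians were 7.23% over 5 stem cell, 70.6% over 4 blood and 19.7% over 2 endothelial markers. The 1 fibro-adipogenic marker with a listed start, Pdgfra, stood at 6.87% there, and the 1 committed muscle marker, Myog, at 62.9%. At the less methylated end the lists overlapped in level. In young cells the stem cell markers ran from 3.56% at Spry1 and 4.33% at Pax7, the defining transcription factor of these cells, to 19.6% at Vcam1 and 36.0% at Cdh15. Some markers of other cell types were as low: Pdgfra stood at 10.3%, Cd79a at 17.6% (68.1% at its start), Tek at 20.8% and Kdr at 23.8%. The committed muscle markers stood at 43.4% (Mymx), 58.3% (Mymk) and 62.9% (Myog).

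**Figure D1:**
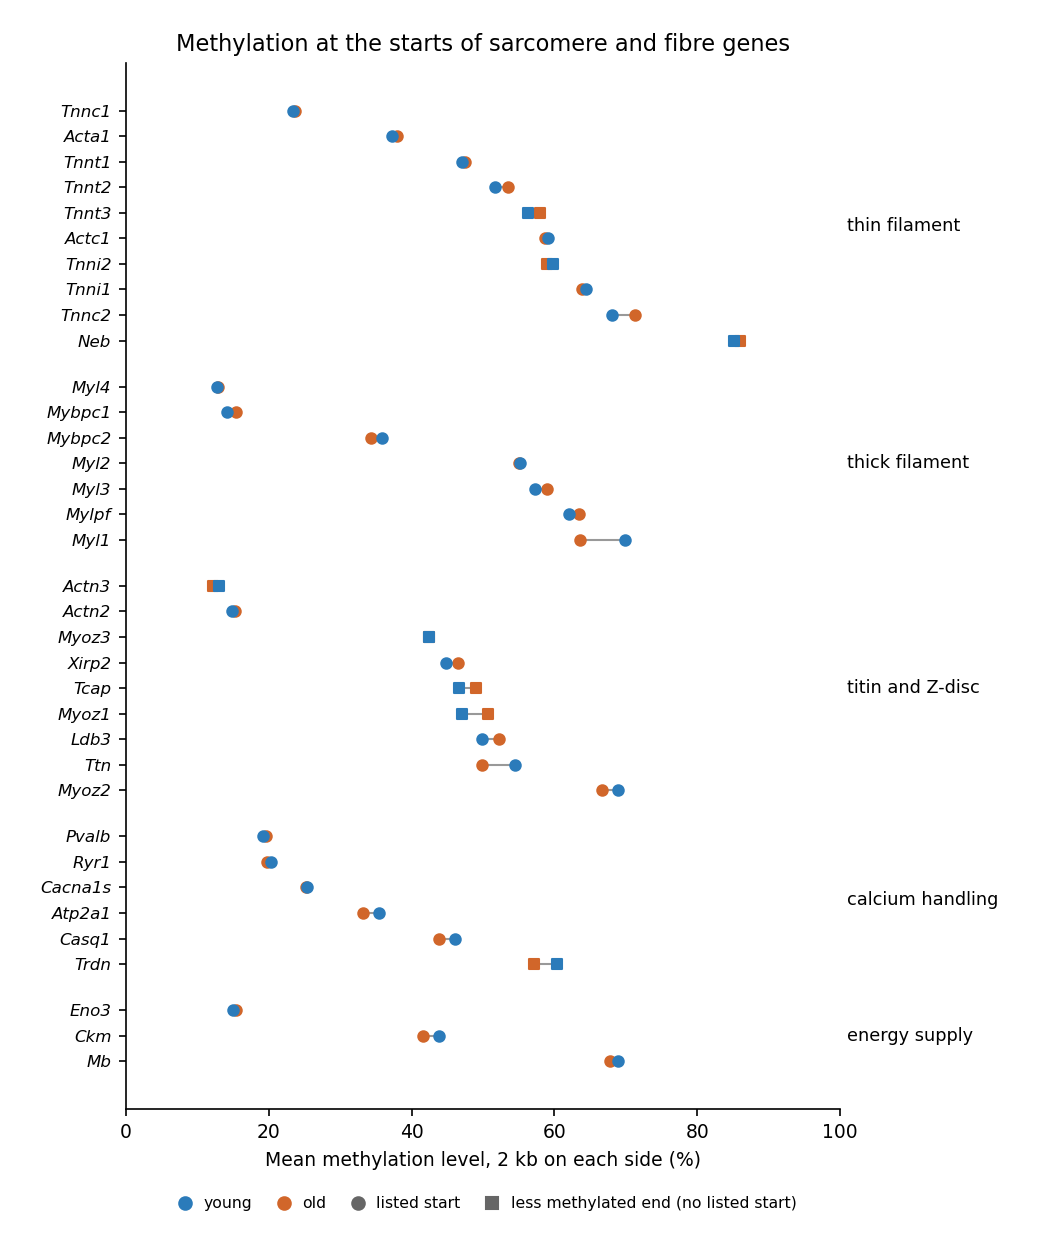
Mean methylation (%, x axis) within 2 kb on each side of the start of each of the 35 genes (rows, grouped by role), young in blue and old in orange; circles are listed starts and squares the less methylated end of the 8 genes without one. Levels ran from 12.8% at Myl4 to 85.2% at Neb in young cells, and the age groups lay close together at nearly every gene, with the widest gap at Myl1.

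Around their starts the fibre genes showed a shallow and short dip. In the 200 bp before the start, the mean over members was 29.2% in the young and 28.2% in the old group, against 17.9% and 17.9% over all genes. Between 400 and 600 bp into the gene the members were already at 50.9% and 50.1%, while all genes were at 22.8% and 22.8%. Far upstream, between 5000 and 4800 bp before the start, the members stood at 56.3% and 59.0% and all genes at 66.0% and 66.5%. Members were thus more methylated than the average gene at the start and less methylated in that far upstream bin. The number of genes with a position differed between bins, so the members behind each bin are not always the same.

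**Figure D2:**
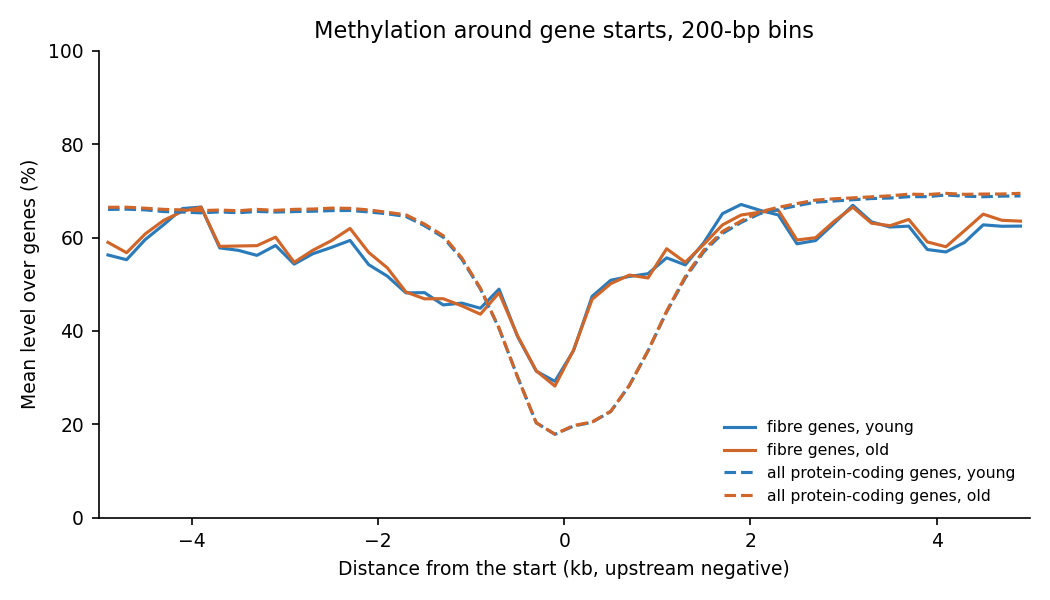
Mean methylation over genes (%, y axis) by distance from the listed start (kb, x axis) in bins of 200 bp, for fibre genes (solid) and all protein-coding genes (dashed), young in blue and old in orange. The dip of the fibre genes reached 29.2% in young cells and had closed to 50.9% by 400 to 600 bp, where all genes were still at 22.8%.

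The promoters of 6 genes show the range, and the bases before the start are printed for these because they carry the CpGs whose levels are compared. Acta1 (skeletal alpha-actin) and Actn2 (alpha-actinin of the Z-disc) had low levels, Ckm (muscle creatine kinase) stood in between, Tnnc2 (fast troponin C) was methylated, and Myl1 and Ttn had the lowest old minus young values. The sequences are from RefSeq, build GRCm38.p6, 250 bases ending at the base before the start, 5′ to 3′ on the gene's strand, with every CpG in capitals. Acta1 lies at chr8:123894776-123895025 on the minus strand, Ckm at chr7:19410844-19411093 on the plus strand, Myl1 at chr1:66945057-66945306 on the minus strand, Ttn at chr2:76982548-76982797 on the minus strand, Actn2 at chr13:12340733-12340982 on the minus strand and Tnnc2 at chr2:164779735-164779984 on the minus strand.
Acta1: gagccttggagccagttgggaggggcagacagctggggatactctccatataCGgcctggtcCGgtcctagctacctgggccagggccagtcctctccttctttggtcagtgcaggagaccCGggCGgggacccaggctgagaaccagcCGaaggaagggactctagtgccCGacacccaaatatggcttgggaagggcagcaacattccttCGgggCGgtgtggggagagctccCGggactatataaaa
Actn2: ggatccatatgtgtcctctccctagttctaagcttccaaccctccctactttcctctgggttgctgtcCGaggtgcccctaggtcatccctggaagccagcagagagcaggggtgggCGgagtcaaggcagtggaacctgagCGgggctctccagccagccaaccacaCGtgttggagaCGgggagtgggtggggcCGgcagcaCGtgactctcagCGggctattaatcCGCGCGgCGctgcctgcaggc
Ckm: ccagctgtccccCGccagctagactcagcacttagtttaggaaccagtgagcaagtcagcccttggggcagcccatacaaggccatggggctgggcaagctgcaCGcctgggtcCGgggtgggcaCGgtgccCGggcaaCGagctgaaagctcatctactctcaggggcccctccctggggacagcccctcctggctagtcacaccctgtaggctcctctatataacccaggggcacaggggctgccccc
Tnnc2: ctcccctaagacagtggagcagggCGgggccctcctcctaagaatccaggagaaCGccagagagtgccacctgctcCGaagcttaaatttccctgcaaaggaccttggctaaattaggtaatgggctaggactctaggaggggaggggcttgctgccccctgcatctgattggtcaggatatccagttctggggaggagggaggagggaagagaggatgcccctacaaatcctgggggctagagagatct
Myl1: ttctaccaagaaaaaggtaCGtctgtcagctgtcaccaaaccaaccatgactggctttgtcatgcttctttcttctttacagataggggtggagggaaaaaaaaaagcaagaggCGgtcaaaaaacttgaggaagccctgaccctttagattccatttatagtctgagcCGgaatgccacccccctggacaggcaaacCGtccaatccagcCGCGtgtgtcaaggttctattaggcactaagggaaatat
Ttn: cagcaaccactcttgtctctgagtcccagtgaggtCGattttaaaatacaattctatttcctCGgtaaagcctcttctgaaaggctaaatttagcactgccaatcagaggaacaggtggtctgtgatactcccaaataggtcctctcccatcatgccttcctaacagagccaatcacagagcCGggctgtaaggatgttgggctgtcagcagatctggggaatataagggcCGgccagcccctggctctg

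Read per CpG, these promoters were flat or graded. The 9 CpGs of Acta1 lay between 9.55% and 10.4% in the young and between 8.68% and 9.72% in the old group, with many neighbours sharing 1 value. The 26 positions of Actn2, in its 12 CpGs and at -1 and -250, averaged 2.45% in the young and 3.07% in the old group. The 13 positions of Ckm, in its 6 CpGs and at -1, averaged 18.3% and 21.9%. Positions at -1 and -250 belong to CpGs cut by the edge of the window. The 3 CpGs of Tnnc2 averaged 64.3% and 65.9%. Myl1 was graded: its paired CpGs nearest the start, the CGCG in capitals, stood at 72.4% in the young and 60.5% in the old group, and the CpG farthest from it, at position -230, stood at 36.4% and 17.7%. At Ttn the 4 CpGs fell into a near pair, at 57.2% and 58.7% in the young and 49.3% and 50.5% in the old group, and a far pair, both at 50.03% in the young and 37.2% in the old group.

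Fibre gene promoters held few CpGs. The 27 windows of 250 bases held a median of 5 CpGs, from 0 at Xirp2 and Tnnc1 to 23 at Myl4 and Pvalb, against a median of 11 over all genes and 19 over the relatives. With 5 CpGs or fewer were 15 of 27 members (55.6%) and 33.8% of all genes. A level could be read, from at least 4 positions, for 22 members: the median was 28.9% in the young and 26.0% in the old group, against 3.18% and 3.09% over 13712 genes, and 9 of 22 members (40.9%) stood below 20% in young cells against 79.8% of all genes. Within CpG-poor promoters the members were not the more methylated ones. With 5 CpGs or fewer, 10 members had a median of 43.4% in young cells and all such genes 52.4%. With 6 or more, 12 members had a median of 14.1% and all such genes 2.82%, with Myl1 (59.9%), Cacna1s (38.5%), Tnnt1 (33.0%) and Tnni1 (29.1%) the highest of the members.

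**Figure D3:**
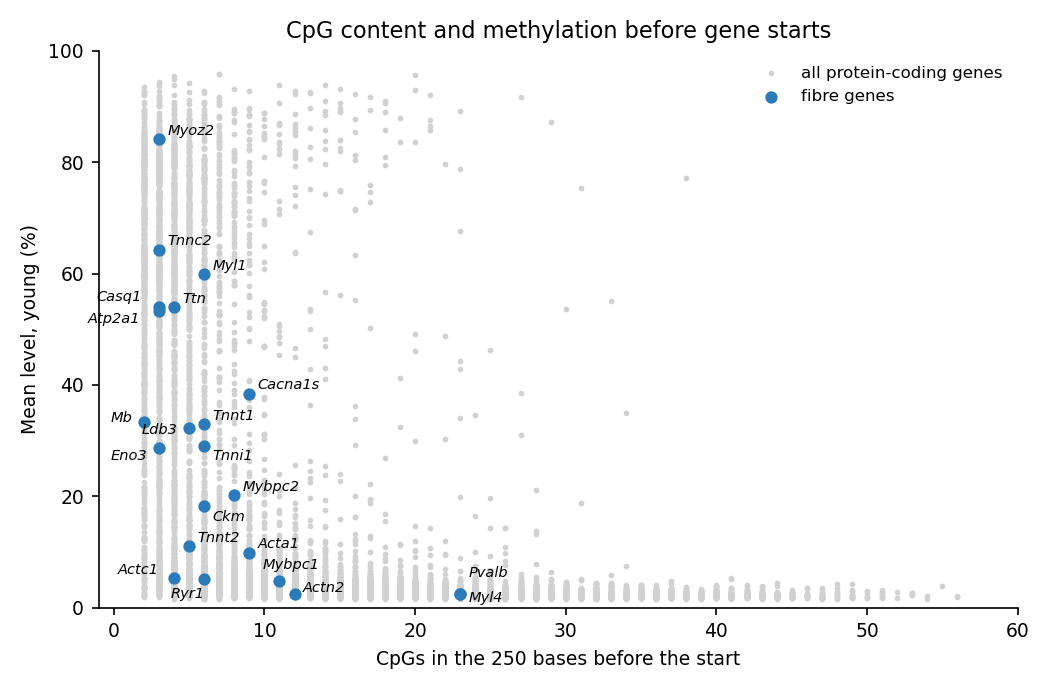
CpGs in the 250 bases before the start (x axis) against mean methylation there in young cells (%, y axis), for promoters with at least 4 measured positions; grey points are all protein-coding genes and blue points the 22 fibre genes. Myl4 and Pvalb, with 23 CpGs, and Actn2, with 12, stood below 3%, whereas Myoz2, with 3 CpGs, stood at 84.2%.

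The same windows were searched on both strands for motifs bound by muscle regulators, each motif counted on its own where motifs overlap. The E-box CANNTG, bound by MyoD and its relatives, was in 23 of 27 members (85.2%) and in 62.0% of all promoters. The MEF2 motif was in 3 members (11.1%), Xirp2, Myoz2 and Ttn, and in 2.34% of all promoters. The CArG box, bound by serum response factor, was in 4 members (14.8%), Myl3, Actc1, Ldb3 and Acta1, and in 1.39% of all promoters. The letters TATAAA of the TATA box were in 3 members (11.1%), Tnnt1, Myl1 and Acta1, and in 11.6% of all promoters. They were counted at any place and on either strand, so a match need not be a TATA box of the listed start. Over 40 promoters of the other fibre genes described below, the shares were 90% (E-box), 15% (MEF2), 2.5% (CArG) and 12.5% (TATA). Over 14 relatives they were 71.4%, 7.14%, 14.3% and 7.14%. Over all promoters with 5 CpGs or fewer they were 73.8%, 4.80%, 1.96% and 23.0%. The motif shares were not tested, and the CArG share of the members was not shared by the other fibre genes. A match describes the letters and shows no binding.

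The thin filament genes ranged widely within 2 kb of their starts. Acta1, whose start lies in a narrow dip, stood at 37.2% in the young and 38.0% in the old group, in a window that also holds the start of Gm29773. Actc1, the cardiac alpha-actin also used in developing skeletal muscle, stood at 59.1% and 58.7% over the same width, in a window that also holds the start of C130080G10Rik, although the 250 bases before its start were at 5.36% and 4.99%. The cytoplasmic actin Actg1 stood at 3.84% in young cells at its start and Actb at 7.91% at its less methylated end. The smooth muscle actin Acta2 stood at 20.1% in the young and 16.9% in the old group at its start, the largest age difference of the relatives, and the tropomyosin Tpm4 at 8.88% and 8.72%. The troponins ran from Tnnc1 (slow and cardiac troponin C, 23.4% in the young and 23.7% in the old group), whose window also holds the start of Nisch, through Tnnt1 (slow troponin T, 47.0% and 47.5%), Tnnt2 (cardiac troponin T, 51.7% and 53.5%) and Tnni1 (slow troponin I, 64.4% and 63.8%) to Tnnc2 (68.1% and 71.3%). Among those without a listed start, Tnnt3 (fast troponin T) stood at 56.2% and 58.0% at its less methylated end and Tnni2 (fast troponin I) at 59.8% and 59.0%. Neb, which encodes nebulin and runs along the thin filament, was highest, with 85.2% in the young and 86.0% in the old group at its less methylated end.

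The thick filament genes spanned low and high start levels. Myl4, the atrial and embryonic essential light chain, stood at 12.8% in the young and 12.9% in the old group in a window that also holds the start of Cdc27, and Mybpc1, the slow myosin binding protein C, at 14.2% and 15.4%. Mybpc2, its fast counterpart, stood at 35.9% and 34.4%. The other light chains were methylated: Myl2 (slow and ventricular regulatory chain) stood at 55.2% and 55.1%, Myl3 (slow and ventricular essential chain) at 57.2% and 59.0%, Mylpf (fast regulatory chain) at 62.0% and 63.4% and Myl1 (fast essential chain) at 69.9% and 63.5%. Their widely expressed relatives Myl6 and Myl12a stood at 12.6% and 6.99% in young cells, and the smooth muscle light chain Myl9 at 32.2%, the highest start of the relatives. The less methylated end of Mylpf, at 6.81% and 6.57%, holds the start of its neighbour Tbc1d10b and not its own.

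Among titin and the Z-disc genes, Actn2 was the lowest at a start of its own, with 14.9% in the young and 15.3% in the old group, beside 7.56% and 12.5% in young cells at its non-muscle relatives Actn1 and Actn4. Actn3, the fast-fibre alpha-actinin, stood at 13.1% and 12.2% at an end that holds the start of Zdhhc24. Xirp2, an actin-binding protein of the cell junction, stood at 44.8% and 46.6%, Ldb3, a PDZ and LIM protein of the Z-disc, at 49.8% and 52.2%, and Ttn, the elastic titin filament, at 54.4% and 49.9%. Myoz2, a calcineurin-binding protein of slow fibres and heart, stood at 68.9% and 66.7%. Its relatives Myoz1 (47.1% and 50.7%) and Myoz3 (42.5% and 42.4%) and the titin cap Tcap (46.7% and 49.0%) were read at the less methylated end.

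The calcium handling genes had the lowest median start level of the 5 roles, which over 5 genes was 25.4% in the young and 25.2% in the old group. Pvalb, the calcium buffer of fast fibres, stood at 19.2% and 19.7% at the less methylated of its listed starts and at 51.9% and 53.3% at the other. Ryr1, the calcium release channel, stood at 20.3% and 19.8%, beside 5.93% and 6.62% for the cardiac Ryr2 and, at its less methylated end, 18.9% in young cells for Ryr3. Cacna1s, the voltage sensor that gates it, stood at 25.4% and 25.2%, beside 8.49% and 11.7% in young cells for its relatives Cacna1c and Cacna1d. Atp2a1, the fast calcium pump, stood at 35.4% and 33.2%, beside 11.9% in young cells for the start of Atp2a3 and 7.84% for the less methylated end of Atp2a2. Casq1, which binds calcium in the store, stood at 46.1% and 43.8%, and Trdn, which anchors it to the release channel, at 60.4% and 57.2% at its less methylated end.

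Of the energy supply genes, Eno3, the muscle enolase, stood at 14.9% in the young and 15.4% in the old group, beside 10.5% in young cells for Eno1. Ckm stood at 43.8% and 41.6%, beside 22.7% in young cells for the brain-type Ckb. Mb, which encodes myoglobin, stood at 68.8% and 67.8%. By fibre type, the median at the start was 40.5% in the young and 39.8% in the old group over 10 fast fibre genes and 55.2% and 55.1% over 11 slow or cardiac genes, with ranges in the young group of 14.9% to 69.9% and of 12.8% to 68.9%. The fast list includes Acta1, Ckm and Eno3 and the slow or cardiac list Mb, so the medians do not compare only fast and slow isoforms.

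Low methylation was also looked for in short stretches inside and within 2 kb of the genes, a stretch being at least 10 neighbouring positions with a mean of both ages below 20% and gaps of at most 300 bp. There were 62 in 28 of the 35 members. Such stretches were not counted over all genes, so the counts here have no background and show no trait of fibre genes. A listed start of the member itself lay in 8, at Acta1, Actc1, Myl2, Myl4, Mybpc1, Actn2, Ryr1 and Pvalb. Another 6 held only the start of a neighbour, and 48, in 23 genes, held no listed start. No stretch of the 8 members without a listed start could be counted at its own start, so some of the 48 may hold one. The longest stretch, 4696 bp at 4.26% in the young and 4.11% in the old group, held the start of Pfn1 and ended at position -382 relative to that of Eno3.

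Several stretches without a listed start lay deep inside a gene, and 1 lay across a gene's 3′ end. In Ldb3, 1382 bp at chr14:34548427-34549808, 38873 to 40254 bp after the start, held 171 positions at 3.83% in the young and 4.01% in the old group. Across the 3′ end of Acta1, 1776 bp at chr8:123891125-123892900 held 170 positions at 6.36% and 6.42%, a longer low stretch than the 622 bp at its start. Beyond its start, Ryr1 held 3 inside its span, the lowest of which, 533 bp at chr7:29061461-29061993, stood at 4.42% and 5.21%. Myl4 held 571 bp at chr11:104571240-104571810, with 4.96% and 4.30%. Mb held 824 bp at chr15:77037534-77038357, at 7.39% and 8.38%, upstream of its least methylated listed start and still inside its span. Exons and CpG islands were not used here, so the annotation of these stretches beyond the gene is not given.

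**Figure D4:**
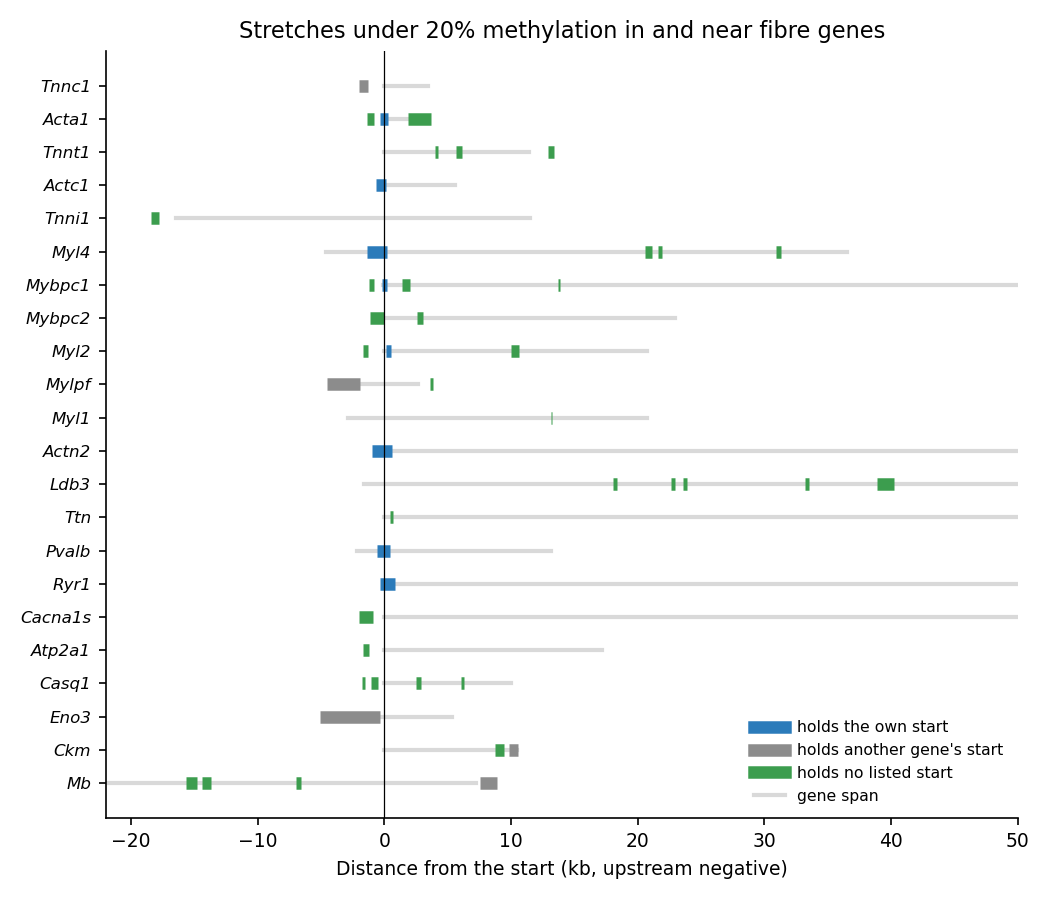
Stretches below 20% methylation (bars, to scale) by distance from the listed start (kb, x axis) for the 22 fibre genes with a listed start and a stretch in view; blue bars hold the gene's own start, grey bars another gene's start and green bars no listed start, and thin grey lines are gene spans. Drawn are 47 of the 52 stretches in genes with a listed start, those centred between 22 kb upstream and 50 kb downstream; green bars outnumber blue ones, and the bar at about 40 kb in Ldb3 is the 1382-bp stretch.

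With age, the fibre genes were about evenly split by sign within 2 kb of their starts and ends. In the 250 bases before the start more members were lower than higher in old cells, where 59.1% of all genes were also lower. At the less methylated end 18 of 35 members were higher in old cells, against 51.4% of all genes, with a mean difference of 0.132 percentage points. At the start 14 of 27 were higher, against 51.2% of all genes. At least 2 points higher were 2 members, Ldb3 and Tnnc2 (9.21% of all genes), and at least 2 points lower were 6, Myl1, Ttn, Casq1, Ckm, Myoz2 and Atp2a1 (5.99% of all genes). The mean start difference was -0.28 points with the median at 0.14 points, so mean and median differ in sign, and without Myl1 the mean was -0.05 points. The right end of Trdn had fewer than 10 positions. None of 69 end windows and none of 34 start windows passed the test, which takes 2 times the median of the authors' p-values in a window, adjusted by Benjamini-Hochberg over all windows of that kind, at 0.05; over all genes it called 0 of 41348 end windows and 0 of 20332 start windows (0% and 0%). At an unadjusted 0.05 it called 0 members at ends and 0 at starts, against 0.0193% of all end and 0.0246% of all start windows. The smallest unadjusted value among start windows was 0.650 at Myl1, with an adjusted p of 1.

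Over whole spans, 24 of 35 members were higher in old cells, against 72.0% of all genes. The median span level was 63.7% in the young and 64.4% in the old group, and 61.9% and 62.4% over all genes. Spans ran from Eno3 (21.1% in the young and 21.3% in the old group) and Acta1 (21.7% and 22.0%) to Neb (76.1% and 77.0%) and Ttn (80.8% and 81.7%). At least 2 points higher were 2 members, Tnnc2 (59.8% and 62.6%) and Myoz1 (61.7% and 64.3%), against 5.69% of all genes. At least 2 points lower was 1 member, Myl1 (66.7% and 64.0%), against 2.85% of all genes. None of 35 spans passed the same test at an adjusted or an unadjusted 0.05, where 0% and 0.00976% of all spans did. The Simes combination, which needs only a few small p-values, called 8 of 35 spans (31.4% of all spans), those of Cacna1s, Neb, Xirp2, Ttn, Myoz2, Trdn, Actn2 and Ldb3, and 0 of 69 end windows (5.62% of all). The authors' dispersion, which the sources used here do not define, had a higher mean in old cells in 18 of 35 spans, against 58.0% of all genes, with medians over members of 0.0501 in the young and 0.0510 in the old group.

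**Figure D5:**
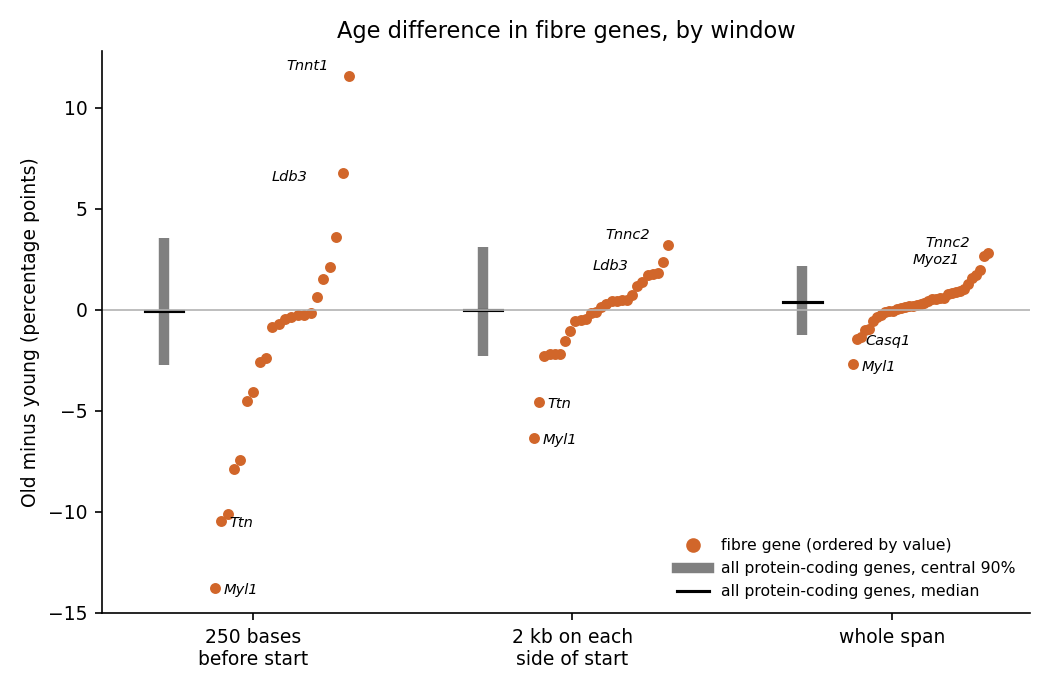
Old minus young methylation (percentage points, y axis) of each fibre gene (points, ordered by value) in the 250 bases before the start, within 2 kb of the start and over the whole span; grey bars hold the central 90% of all protein-coding genes and black lines their median. Differences were widest before the start, from -13.8 points at Myl1 to 11.6 points at Tnnt1, and narrowest over the span.

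In the 250 bases before the start the differences were wider than over 2 kb. Of 22 members, 16 were lower in old cells, against 59.1% of all genes. Of the other fibre genes described below, 32 could be read in this window, and 16 of these were higher in old cells. The median difference was 0.063 points over them, -0.591 points over the members and -0.067 points over all genes. At least 5 points lower were 5 members (2.42% of all genes): Myl1 at 59.9% in the young and 46.2% in the old group, Ttn at 54.0% and 43.6%, Atp2a1 at 53.3% and 43.2%, Myoz2 at 84.2% and 76.3%, and Mb at 33.4% and 26.0%. At least 5 points higher were 2 members (3.15% of all genes): Tnnt1 at 33.0% and 44.5% and Ldb3 at 32.3% and 39.1%. Among promoters with 5 CpGs or fewer, where such differences were more frequent over all genes, 8 of 10 members were lower in old cells (47.7% of such genes), 4 by at least 5 points (10.2%), and 1 was higher by at least 5 points (12.6%). None of the 22 passed the test, at an adjusted or an unadjusted 0.05, where 0% and 0.0656% of all promoters did. For Myl1 the unadjusted value was 0.101 and for Tnnt1 0.172, each with an adjusted p of 1. The listed start of Myl1 lies inside its span. Within 2 kb of the 5′ end of that span, at chr1:66947932, Myl1 stood at 84.9% in the young and 88.9% in the old group. The difference there has the opposite sign. The 7 promoters with differences of at least 5 points hold 4 to 12 positions, so a level rests on few CpGs.

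Single CpG positions were called by the authors' FDR at 0.05 in 35 of 36406 positions in and within 2 kb of the members, or 0.0961%, against 0.236% of all positions. Higher in old cells were 12 (0.132% of all positions) and lower 23 (0.105% of all positions). They lay in 12 genes, with 12 in Trdn, 5 in Neb, 4 in Xirp2, 3 each in Actn2 and Myoz2, 2 in Ttn and 1 each in Tnnt3, Myl4, Myoz1, Ldb3, Ryr1 and Cacna1s. Inside a gene span were 34 of 35, and the median size was 17.5 points. Leaving out positions whose dispersion was the commonest value of an age group left 3 calls, and no CpG was called on both strands. The position in Trdn at 33256295 on chromosome 10 stood at 17.3% in the young and 50.7% in the old group, and that at 33281257 at 96.4% and 72.4%. In Xirp2, the position at 67457199 on chromosome 2 stood at 37.9% and 70.4%. These positions in Trdn and Xirp2 all carried the commonest dispersion value of an age group, so none is among the 3 calls left. No member held a run of at least 6 positions with p under 0.01 in 1 direction and gaps of at most 100 bp, where 255 of all genes (1.18%) held such a run.

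Other fibre genes, a list of 56 that holds further Z-disc, M-band, calcium and energy genes, resembled the members in level. Their median at the less methylated end was 47.3% in the young and 47.4% in the old group, and that of the 35 members 47.1% and 49.9%; the relatives stood at 11.9% and 11.4% over 17 genes. Higher in old cells were 33 of 56 other fibre genes and 4 of 17 relatives, against the 51.4% of all genes above. The highest differences were at Myot (myotilin of the Z-disc), at 61.1% in the young and 64.8% in the old group, Casq2 (cardiac calsequestrin), at 48.4% and 51.8%, and Csrp3 (a LIM protein of the Z-disc), at 56.1% and 58.9%. The lowest were at Myom2 (an M-band protein), at 57.2% and 52.6%, Ankrd1 (a stretch-responsive ankyrin repeat protein), at 32.9% and 29.4%, and Synpo2 (an actin-bundling protein), at 25.4% and 22.8%. None of these windows passed the test, over all of which 0% were called.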

How the data were processed

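Bisulfite sequencing covered 8 libraries, each from 1 animal, and age in the labels gave the groups. Library input was 150 ng of DNA with 14 PCR cycles, and reads were paired and 101 bp long, per the labels' protocols. The submitters' processing notes name the tools Trim Galore, Bismark and edgeR and the builds mm10 and GRCm38, with neither version nor role stated. The levels are deposited per the file headers as a fraction from 0 to 1 per position and age (mu), equal over many neighbouring positions, as smoothed values are; they are printed in percent. The dispersion (phi) is deposited by the authors as a score per age. The authors' p-value for old against young and its FDR are deposited per position. No column holds an animal's value or a read count, so depth is unknown and tests rest on the authors' p-values.

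All positions on the 19 autosomes and X counted equally in a mean. Deposited positions count from 0: adding 1 placed 626354 of 626354 on a CpG cytosine of the RefSeq promoters, and printed positions include it. Starts came from RefSeq (GRCm38.p6) for 27 members; for several listed starts the least methylated was used. Windows of 2000 bp needed at least 10 positions and promoters of 250 bases at least 4. The named genes are all 35 members by role, 17 relatives, and the 3 highest and 3 lowest of 56 other fibre genes. Marker genes named singly, the 250-base windows, the 5-point and 2-point limits, low stretches and runs were chosen after seeing the data. Members and lists were chosen with earlier results of these data known. The window test was tried on simulated data, which does not give its power here, where the authors' p-values had a median of 0.688 over all positions. Alternatives were other widths, position filters, summaries and the Simes combination. Python 3.11.15, numpy 2.4.6, pandas 2.3.3 and matplotlib 3.10.9 were used.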

Additional observations from a re-analysis of the deposited data

How the results depend on the processing

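No replicate error exists here. The standard error over members (0.283 points at ends, 0.401 at starts, 0.186 over spans, 1.23 in promoters) served only to choose which shifts to print; it is no error between animals and tests nothing. The end mean of 0.132 points kept its sign under 7 alternatives, from 0.0013 to 0.4 points. The start mean of -0.28 points became 0.14 as a median; it was -0.05 without Myl1 and -0.52 with 1000 bp on each side. The span mean of 0.34 points became 0.544 with 2000 bp trimmed at each end. The promoter median of -0.591 points was -1.82 as a mean, -0.275 with 500 bases and -0.288 with the commonest dispersion values left out. The 35 called positions became 25 at FDR 0.01, 3 without positions at the most common dispersion and 0 when required on both strands. Called spans went from 0 to 8 with the Simes combination; called ends stayed at 0 under 3 alternatives. The cause of these shifts was not tested. The median over starts, and the Myl1, start choice, neighbour-start and promoter alternatives, were chosen after seeing the data. No paired analysis was possible because the table holds group values only; leaving out each replicate was not run for the same reason. Unknown depth and smoothing limit how narrow a difference can be seen.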

Other observations

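The called positions of the fibre genes were looked at by strand and dispersion. Of the 35, 32 carried the most common dispersion value of either age group (0.0438 in young, 0.0434 in old), and 28 carried both; over all positions 18.9% carry the young value and 17.2% the old value. For 34 of them the partner cytosine on the other strand of the same CpG was also listed, and its levels were equal in 34 of 34. The partner's p-value nevertheless had a median of 0.0857 and was under 0.05 in 6, and no CpG was called on both strands. The 3 called positions off the common dispersion were in Myoz2 (75.0% in the young and 46.2% in the old group), Ryr1 (57.3% and 91.6%) and Cacna1s (48.3% and 70.7%). The part of the dispersion in these calls was not tested.

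Among low stretches, the most negative differences were in Ldb3, at 21.8% in the young and 14.4% in the old group over 275 bp, and in Actn3, at 17.0% and 11.0% over 773 bp. The most positive were in Tcap, at 17.2% and 22.3% over 102 bp, and Atp2a1, at 12.8% and 17.4% over 484 bp. The smallest FDR in each of these was 1, and 26 of the 62 stretches were higher in old cells. The less methylated end of Myoz2 is its start, and its opposite end stood at 73.8% in the young and 66.3% in the old group. These were chosen after their values were seen.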
